A study of Mus musculus with 10 samples.

Results

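The genes of the 3 NF-Y subunits, Nfya, Nfyb and Nfyc, were followed through mouse spermatogenesis. They were chosen by name, as the 3 known subunits of this factor, and are 3 of the 28125 genes of the scRNA-seq matrix and 3 of the 30670 genes of the scATAC-seq matrix. RNA and accessible chromatin were measured together in nuclei of whole testes. The wild-type animals were 11, 17 or 25 dpp old, and the Cre/+ and Nfya-CKO animals 8 weeks. The per-cell table calls the 8-week control CreKO_8w, which was read as the Cre/+ library from the sample titles, and every statement on Cre/+ cells rests on this reading. Cre/+ males carry Stra8-Cre, in which the recombinase follows the last codon of Stra8, and Nfya-CKO males carry the same Stra8-Cre with Nfya fl/fl on a C57BL/6J background. Stra8-Cre acts in spermatogonia (SpG) and preleptotene spermatocytes (pL), so somatic cells of the Nfya-CKO testis keep the floxed gene. There was 1 library per condition and assay.

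Each value below is a mean over the cells of 1 of 13 populations named by the authors, pooled over libraries. A population is therefore a single value with no replicate, no test between populations was possible, and the 95% intervals given for RNA cover counting error only. RNA levels are in UMIs (collapsed reads of 1 molecule) per 10000 UMIs of a cell.

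NF-Y binds the CCAAT box, a short promoter element found upstream of many housekeeping, cell cycle and metabolic genes. NFYB and NFYC pair through histone folds into a dimer that resembles the pair formed by H2A and H2B, and NFYA joins this dimer and reads the CCAAT sequence. All 3 subunits are needed for binding, so the supply of each can limit the complex. In the testis, SpG enter meiosis as pL, pass through leptotene (L), zygotene (Z), pachytene (P) and diplotene, and become round and then elongating spermatids. The Nfya-CKO mice address what loss of NFYA does to germ cells around meiotic entry.

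The part of Nfya that Stra8-Cre removes is exons 5 and 6, with loxP sites in introns 4 and 6. In the RefSeq Select transcript of GRCm38.p6, the build of mm10, exon 5 lies at chr17:48393421-48393552 and exon 6 at chr17:48393180-48393285 on the minus strand. Both are wholly coding. They are shown because the levels of Nfya RNA reported below count the whole gene and do not say whether these bases were present. Exon 5 is in lower case and exon 6 in capitals.
Nfya exons 5 and 6: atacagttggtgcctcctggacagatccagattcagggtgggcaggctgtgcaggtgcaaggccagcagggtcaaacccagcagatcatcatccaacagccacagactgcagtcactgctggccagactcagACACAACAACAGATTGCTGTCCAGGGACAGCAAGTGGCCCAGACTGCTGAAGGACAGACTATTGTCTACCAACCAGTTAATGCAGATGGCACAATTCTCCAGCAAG
These 238 bases leave a remainder of 1 when divided by 3, so that joining exon 4 to exon 7 shifts the reading frame. They are part of a transcript of 3711 bases and 10 exons, whose last exon alone holds 2458 bases.

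Nfya, Nfyb and Nfyc lie on the minus strands of chromosomes 17, 10 and 4, at chr17:48386885-48409820, chr10:82748700-82764141 and chr4:120757435-120831579. RefSeq gives Nfya 3 start sites, Nfyb 1 and Nfyc 4, the latter spread over 15866 bases. The promoters, from 250 bases before to 50 bases after a start, are shown because the factor reads CCAAT. For Nfya and Nfyb the RefSeq Select start is printed, and for Nfyc another start, chosen because its promoter holds the most such motifs of the 3 Nfyc promoters in the table used. Capitals mark CCAAT on the printed strand or ATTGG, which is CCAAT on the other strand, and the 2 motifs do not overlap in these sequences.
Nfya, chr17:48409771-48410070: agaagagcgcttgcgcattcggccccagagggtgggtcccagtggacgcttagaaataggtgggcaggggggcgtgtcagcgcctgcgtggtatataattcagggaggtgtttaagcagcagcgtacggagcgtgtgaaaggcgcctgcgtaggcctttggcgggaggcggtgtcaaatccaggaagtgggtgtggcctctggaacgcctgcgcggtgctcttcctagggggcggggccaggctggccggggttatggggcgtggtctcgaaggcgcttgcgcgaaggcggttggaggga
Nfyb, chr10:82764092-82764391: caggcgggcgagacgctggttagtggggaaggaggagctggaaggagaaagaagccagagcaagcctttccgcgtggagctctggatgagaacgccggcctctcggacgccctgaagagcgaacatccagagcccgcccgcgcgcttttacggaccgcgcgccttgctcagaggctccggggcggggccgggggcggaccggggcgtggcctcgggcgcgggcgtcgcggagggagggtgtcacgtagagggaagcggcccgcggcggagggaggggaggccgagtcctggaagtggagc
Nfyc, chr4:120825160-120825459: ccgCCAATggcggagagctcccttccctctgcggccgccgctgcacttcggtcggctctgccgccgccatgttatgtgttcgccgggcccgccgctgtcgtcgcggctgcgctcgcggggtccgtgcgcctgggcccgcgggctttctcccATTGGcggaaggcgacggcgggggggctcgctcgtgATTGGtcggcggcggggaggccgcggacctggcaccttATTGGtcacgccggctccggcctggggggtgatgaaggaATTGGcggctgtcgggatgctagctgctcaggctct
The Nfyc promoter at the start 120825209 held 5 such motifs, 1 CCAAT and 4 ATTGG, which begin at -247, -99, -63, -25 and 14 relative to the start. Of 32851 RefSeq promoters of this length, 37.4% held at least 1 such motif and 0.271% held at least 5. A further Nfyc promoter, at the start 120815713, held 3 motifs, and the one at the RefSeq Select start 120825741 held 0. The printed promoters of Nfya and Nfyb held 0, and the inner start of Nfya at 48400580 held 1. A match of 5 letters is a description and not a binding site.

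The 13 populations hold 99 to 8107 scRNA-seq cells and 743145 to 48075153 UMIs, with the fewest among named populations in elongating spermatids (3850784). Of 26 marker genes for 8 kinds of cells, 19 were highest in their own population, and Kit, the stem cell factor receptor of differentiating SpG, was highest in pL. For this count, SpG of the library labelled Nfya-CKO were counted with control undifferentiated SpG. The 491 SpG of the library labelled Nfya-CKO had a median of 18361 UMIs, against 1292 control undifferentiated cells with 9290.

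Libraries shared cell barcodes, and the populations compared below hold such cells. Of 39674 scRNA-seq barcodes, 5030 (12.7%) occurred in more than 1 library, against 982 of 342825 (0.286%) in scATAC-seq. The Nfya-CKO and Cre/+ libraries shared 3813 of the 5152 barcodes of Nfya-CKO, whereas Nfya-CKO shared 0 to 10 with each wild-type library. Among the SpG of the library labelled Nfya-CKO, 175 of 491 (35.6%) had a barcode of a Cre/+ cell, which in 143 cases was named differentiating SpG. In each of the 175 pairs the Nfya-CKO cell held more UMIs, with a median of 21471 against 2275. Of the 783 Cre/+ cells named differentiating SpG, 448 shared a barcode with the Nfya-CKO library. The matrix is pooled by population and cannot be remade without these cells, so their part in the levels was not tested.

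Nfya and its partners were ordered differently along spermatogenesis. Nfya was lowest in early meiosis and higher again from middle pachytene to the spermatids, whereas Nfyb was highest in differentiating SpG and Nfyc in pL, and both were lowest in spermatids. Each range is the highest over the lowest of the 9 control germ cell populations, with 0.1 added to both. It was 1.82-fold for Nfya (95% interval 1.57 to 2.12), 4.65-fold for Nfyb (4.12 to 5.24) and 2.86-fold for Nfyc (2.46 to 3.31). Over the 10067 genes whose mean reached 0.2 in these populations, the median range was 3.37-fold, and 92.9% of genes varied at least as much as Nfya, 32.0% as much as Nfyb and 61.3% as much as Nfyc. The order of the 3 ranges depended on the setting: with 1 added, Nfyb (1.72-fold) was below Nfyc (1.77-fold), without an addition Nfyb was at 7.62-fold, and with median-ratio scaling (described below) Nfya (2.64-fold) was above Nfyc (2.39-fold).

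Nfya, the subunit that reads the DNA sequence, stood at 0.456 UMIs per 10000 in undifferentiated SpG, 0.667 in differentiating SpG, 0.414 in pL, 0.375 in early leptotene to zygotene cells (eL/L/Z) and 0.392 in leptotene to early pachytene cells (L/Z/eP). It then stood at 0.601 in middle and late pachytene cells (mP/lP), 0.647 in diplotene cells, 0.725 in round spermatids and 0.767 in elongating spermatids. The undifferentiated, pL and leptotene-zygotene populations were thus low, and differentiating SpG and all populations from mP/lP on were high. The lowest high population was mP/lP (0.574 to 0.630), and the highest low one undifferentiated SpG (0.412 to 0.502). These groups were drawn from the same levels, so the gap between them is a description only. Outside the control germ line Nfya was at 0.360 in Sertoli cells, 0.822 in other somatic cells, 1.11 in SpG of the library labelled Nfya-CKO and 0.501 in 99 cells of unknown type. Of the 13 populations, the highest Nfya level was in SpG of the library labelled Nfya-CKO, with an interval (1.03 to 1.18) above that of the next (0.762 to 0.886 in other somatic cells). With median-ratio scaling, round spermatids (1.14) were level with it (1.13), so this rank depends on the scaling. In the order of the 13 levels, 11 of the 12 pairs of neighbours had overlapping intervals.

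Nfyb, one of the histone-fold subunits, stood at 0.639 in undifferentiated SpG, 0.936 in differentiating SpG, 0.838 in pL, 0.442 in eL/L/Z and 0.281 in L/Z/eP. It was at 0.328 in mP/lP, 0.215 in diplotene cells, 0.123 in round spermatids and 0.209 in elongating spermatids. The 3 populations up to pL were all above every later control germ cell population, and their intervals did not overlap with any of those. The share of all genes with such a split is not given here, so it cannot be called particular to Nfyb. In the remaining populations Nfyb was at 0.300 in Sertoli cells, 0.356 in other somatic cells, 0.971 in SpG of the library labelled Nfya-CKO and 0.262 in the unknown cells. The level in SpG of the library labelled Nfya-CKO (0.903 to 1.04) overlapped with that in differentiating SpG (0.847 to 1.03), and over the 13 populations 8 of 12 pairs of neighbours overlapped.

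Nfyc, the partner of NFYB in the histone-fold dimer, stood at 1.17 in undifferentiated SpG, 1.31 in differentiating SpG, 1.73 in pL, 1.40 in eL/L/Z and 1.14 in L/Z/eP. It was at 0.820 in mP/lP, 0.795 in diplotene cells, 0.769 in round spermatids and 0.540 in elongating spermatids. The level in pL (1.66 to 1.80) was the highest of all 13 and did not overlap with the next, and mP/lP, diplotene cells and round spermatids differed by less than the counting error. Among the other populations Nfyc was at 0.863 in Sertoli cells, 0.734 in other somatic cells, 1.43 in SpG of the library labelled Nfya-CKO and 0.635 in the unknown cells. Of its 12 pairs of neighbours, 10 overlapped.

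**Figure D1:**
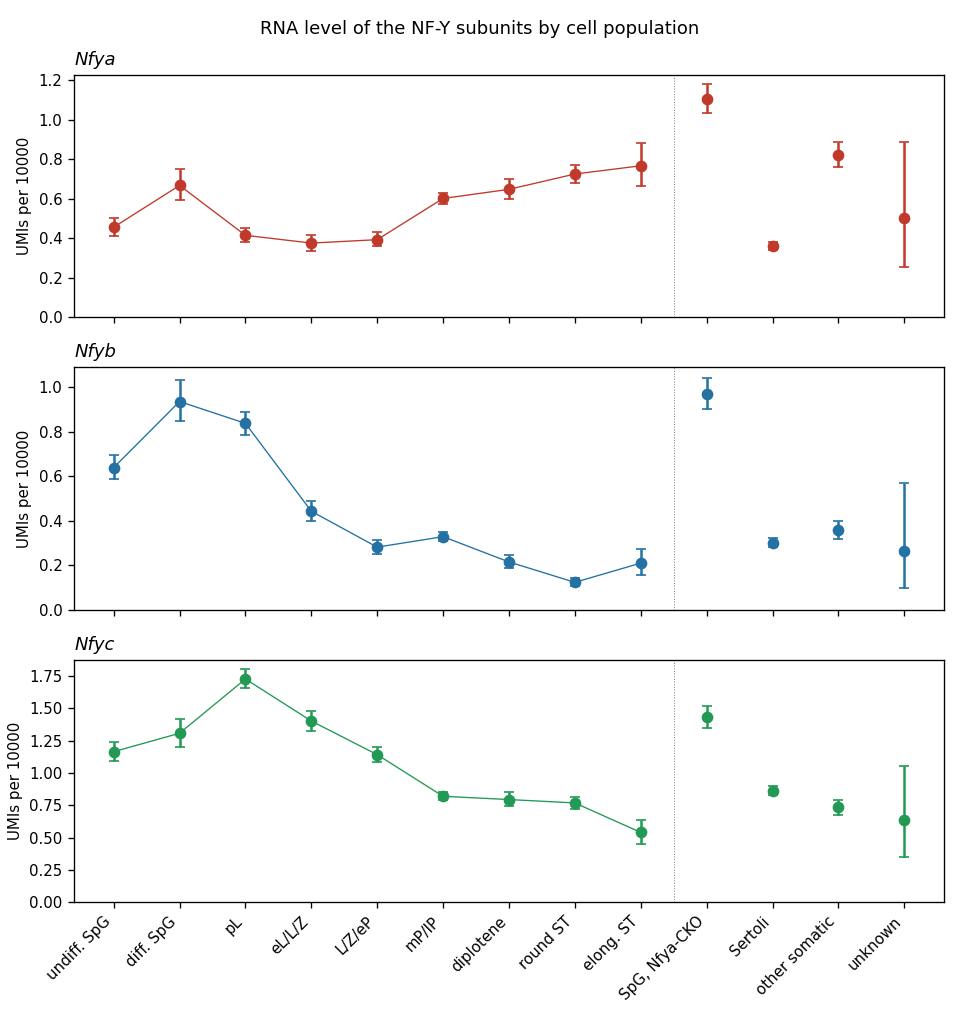
Points are the RNA levels of Nfya, Nfyb and Nfyc (UMIs per 10000, linear axes from 0) in the 9 control germ cell populations, joined by lines, and in the 4 other populations to the right of the dotted line, and bars are 95% counting intervals. Among the 9 control germ cell populations, Nfya is lowest in eL/L/Z (0.375) and reaches 0.767 in elongating spermatids. Nfyb is lowest there in round spermatids (0.123) and Nfyc in elongating spermatids (0.540).

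The balance between the subunits therefore shifted. A ratio of 2 genes taken relative to the same ratio in undifferentiated SpG does not depend on gene length. The Nfya to Nfyb ratio was 0.694 times that of undifferentiated SpG in pL (0.587 to 0.819), 1.96 times in L/Z/eP (1.62 to 2.36), 2.57 times in mP/lP (2.21 to 2.98) and 8.27 times in round spermatids (6.74 to 10.2). It was 5.14 times in elongating spermatids (3.69 to 7.15). The Nfya to Nfyc ratio was 0.613 times in pL (0.528 to 0.713), 1.88 times in mP/lP (1.65 to 2.14) and 3.63 times in elongating spermatids (2.83 to 4.65). Both ratios were thus lowest in pL, the entry to meiosis, among the 9 control germ cell populations, although for the ratio to Nfyc the interval in eL/L/Z (0.579 to 0.808) overlapped with that in pL. Both were above 1 from mP/lP on. These values set RNA against RNA within a population, so they do not change with the scaling of the population. As a description over 9 control germ cell populations that share libraries, Pearson's r of the log2 levels was 0.80 between Nfyb and Nfyc, -0.45 between Nfya and Nfyb and -0.78 between Nfya and Nfyc. Over all 12 named populations the same values were 0.80, 0.04 and -0.32, so the negative values of Nfya depend on the populations taken.

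**Figure D2:**
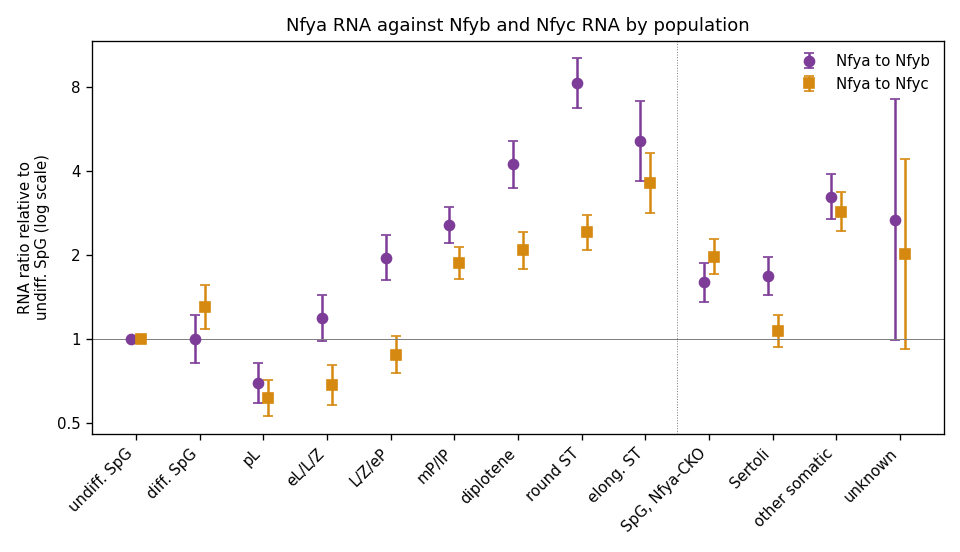
Each point is the ratio of Nfya to Nfyb RNA (circles) or of Nfya to Nfyc RNA (squares), relative to the same ratio in undifferentiated SpG, on a log axis, with 95% counting intervals. Circles climb from 0.694 in pL to 8.27 in round spermatids, and squares from 0.613 in pL to 3.63 in elongating spermatids.

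Between consecutive germ cell populations none of the 24 log2 ratios (with 0.1 added) reached 2-fold. The shares of all compared genes (mean of at least 0.05) that were at least 2-fold apart were 17.3% from undifferentiated to differentiating SpG, 13.6% from there to pL, 5.87% from pL to eL/L/Z and 10.4% from there to L/Z/eP. They were 5.6% from L/Z/eP to mP/lP, 5.62% from there to diplotene, 15.2% from diplotene to round spermatids and 21.3% from round to elongating spermatids. Against these shares, a count of 0 among 24 is near the background. Nfyb was lower in eL/L/Z than in pL by a log2 ratio of -0.79 (-0.93 to -0.65), when the median gene was at 0.01 and 1.81% of genes had a lower ratio. Nfyc was lower in mP/lP than in L/Z/eP, at -0.43 (-0.52 to -0.35), and Nfya was higher across that step, at 0.51 (0.39 to 0.63), above 89.5% of genes. The 2 subunits thus went opposite ways on entry to middle pachytene, when the median gene was at -0.09. Before meiosis, Nfya was lower in pL than in differentiating SpG, at a log2 ratio of -0.58 (-0.75 to -0.40), and Nfyc was higher, at 0.38 (0.25 to 0.50). Differentiating SpG come mostly from 1 adult library (783 of 927 cells from Cre/+), whereas 1045 of 1761 pL cells are from 11 dpp and 6 from Cre/+, so stage and age cannot be told apart in this step. The same holds along the whole series, since 11 dpp gave 646 of 1292 undifferentiated SpG, 25 dpp 38 of 1761 pL, 2431 of 5705 eL/L/Z and 7583 of 8107 L/Z/eP cells, and Cre/+ 5639 of 7325 round spermatids. The lower Nfyb after pL and the shift in balance relative to undifferentiated SpG carry this limit too. Differentiating SpG also held RNA of elongating spermatid markers (Prm1, Prm2 and Tnp1, together 6.67 UMIs per 10000, against 0.312 in undifferentiated SpG and 0.00834 in pL), whose part in the values was not tested.

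A scaling that sets the median ratio of genes to 1 in each population divided round spermatids by 0.638 and pL by 1.02. Under it Nfyc was higher in round spermatids than in diplotene cells (log2 ratio 0.34 in place of -0.04), and Nfya was lower in elongating than in round spermatids (-0.27 in place of 0.07).

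The comparison of SpG of the library labelled Nfya-CKO with control undifferentiated SpG shows the targeted gene first. Nfya RNA was not lower but higher, at 1.11 UMIs per 10000 (1.03 to 1.18) against 0.456 (0.412 to 0.502). The log2 ratio was 1.12 (0.97 to 1.26), a 2.17-fold difference, while 4.76% of 13954 genes were at least 2-fold higher and 3.4% at least 2-fold lower, or 8.16% in all. Nfya lay above 96.4% of these genes, but with 1 added in place of 0.1 the log2 ratio was 0.53, under 2-fold. Nfyb was at 0.971 against 0.639, a log2 ratio of 0.54 (0.40 to 0.67), and Nfyc at 1.43 against 1.17, a log2 ratio of 0.28 (0.16 to 0.39). All 3 log2 ratios were above 0 by more than counting error, that of Nfya by the most, and the median gene was at 0.04. Nfyb lay above 83.5% of genes and Nfyc above 69.1%. The share of all genes that were higher beyond counting error is not given here, so this count does not set the subunits apart. The counts of Nfya do not distinguish transcripts with and without exons 5 and 6, so the loss of these exons was not measured here. Of these SpG, 35.6% share a barcode with a Cre/+ cell, as given above.

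Against differentiating SpG, of which 783 of 927 cells come from the Cre/+ mice of the same age, the Nfya log2 ratio was 0.65 (0.48 to 0.82), in a comparison where 18.3% of genes were at least 2-fold apart. Nfyb and Nfyc did not differ from this second control beyond counting error, with log2 ratios of 0.05 (-0.11 to 0.20) and 0.12 (-0.01 to 0.26). The size of the Nfya difference therefore depended on the control, and its direction did not. Control undifferentiated SpG are 646 cells of age 11 dpp, 262 of 17 dpp and 280 of 25 dpp, with 102 Cre/+ cells and 1 Nfya-CKO cell, and age and genotype cannot be told apart in the first comparison.

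RNA of other cell types differed between these SpG too. All 5 markers of other somatic cells (Insl3, Cyp11a1, Acta2, Pecam1 and Adgre1) were higher in SpG of the library labelled Nfya-CKO, and their sum was 41.0 UMIs per 10000 against 0.342 in control undifferentiated SpG. Of the 5, Pecam1 and Adgre1 did not mark other somatic cells in these data, where they were at 0.0973 and 0.0245, below their levels of 0.224 and 0.0449 in SpG of the library labelled Nfya-CKO. Nearly all of this was Insl3, the insulin-like hormone of Leydig cells, at 39.8 against 0.0640, and it was at 177 in other somatic cells, whereas Acta2, the smooth muscle actin, was at 0.0955 against 0.0846. The part of this RNA in the Nfya difference was not tested. Other somatic cells themselves had less Nfya (0.822) than SpG of the library labelled Nfya-CKO (1.11). The undifferentiated SpG markers were present in both SpG populations, with Zbtb16 at 4.15 against 8.74, Gfra1 at 1.20 against 1.08 and Uchl1 at 11.0 against 5.88. The differentiating SpG markers were all higher in SpG of the library labelled Nfya-CKO. Kit was at 1.08 against 0.548, Sohlh1 at 1.90 against 1.75 and Dmrtb1 at 0.173 against 0.133. The part of a difference in stage in the Nfya difference was not tested.

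**Figure D3:**
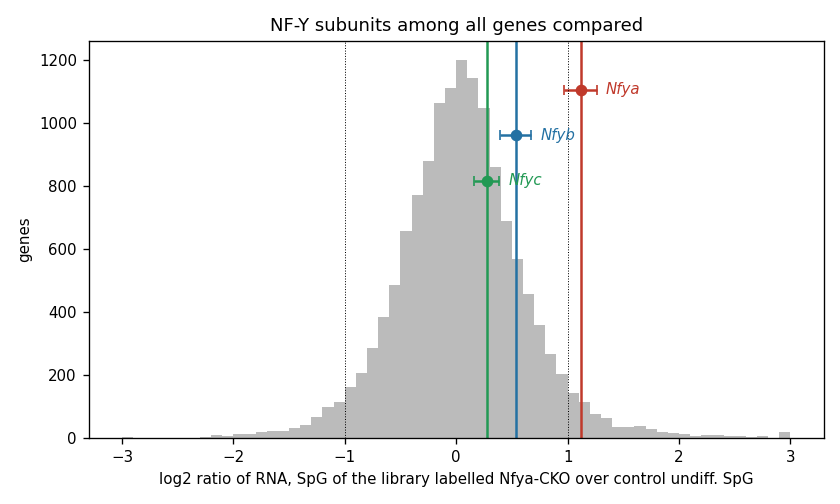
Grey bars count the 13954 genes compared by their log2 ratio (value + 0.1) of SpG of the library labelled Nfya-CKO over control undifferentiated SpG, in steps of 0.1, with ratios beyond 3 or below -3 in the outermost bars. Coloured points and lines are the 3 subunits with 95% counting intervals, and dotted lines mark 2-fold, which Nfya (1.12) passes and Nfyb (0.54) and Nfyc (0.28) do not.

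Among somatic cells, Nfya was the subunit that differed most. It was at 0.822 in other somatic cells and 0.360 in Sertoli cells, a 2.01-fold difference (0.89 to 1.12 on the log2 scale), in a comparison where 24.6% of genes were at least 2-fold apart. Nfyb was at 0.356 against 0.300, a log2 ratio of 0.19 (0.04 to 0.34), and Nfyc at 0.734 against 0.863, at -0.21 (-0.32 to -0.09). Other somatic cells and Sertoli cells differ in origin as well, since 4633 of 5883 other somatic cells come from the Nfya-CKO library and 2866 of 3265 Sertoli cells from 11 dpp. Of those 4633 cells, 3628 (78.3%) shared a barcode with a Cre/+ cell, and in 3305 cases that cell was named as a germ cell. Other somatic cells also held more RNA of germ cell markers than Sertoli cells. The summed elongating spermatid markers were at 2.74 against 0.00562, and the summed round spermatid markers at 1.41 against 0.0361. Pachytene and diplotene markers together were at 2.66 against 0.094. The part of this germ cell RNA in the Nfya difference was not tested. More Nfyb was found in SpG of the library labelled Nfya-CKO than in other somatic cells, which come mostly from the same library, with a log2 ratio of 1.23 (1.07 to 1.39), and more Nfyc, at 0.88 (1.84-fold). The Nfya log2 ratio between them was 0.39 (0.26 to 0.52), and 26.4% of genes were at least 2-fold apart.

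The scATAC-seq value of a gene is given as a mean per population and is expressed here per 1000000 over all genes. In the methods of the study, promoter accessibility in pooled tracks is the mean coverage within 200 bases of a start, but the deposited matrix is on another scale and its region per gene is not stated, so neighbouring genes were compared. In control undifferentiated SpG, 746 divergent gene pairs with GENCODE starts under 200 bases apart differed by a median absolute log2 ratio of 0.00283, 110 pairs 500 to 1000 bases apart by 0.0280, and 89 pairs 2000 to 3000 bases apart by 1.03. Where the outermost start of a gene lay at least 4000 bases from its RefSeq Select start, the value matched that of a neighbour within 500 bases of the outermost start (median absolute log2 ratio 0.00385, 192 pairs) and not that of a neighbour within 500 bases of the RefSeq Select start (0.68, 50 pairs). A value thus follows the chromatin around the outermost start of a gene. Windows of 200 bases to each side would share no base for starts 500 to 1000 bases apart, whose values were still nearly equal, so the deposited values appear to cover a wider region than that window.

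**Figure D4:**
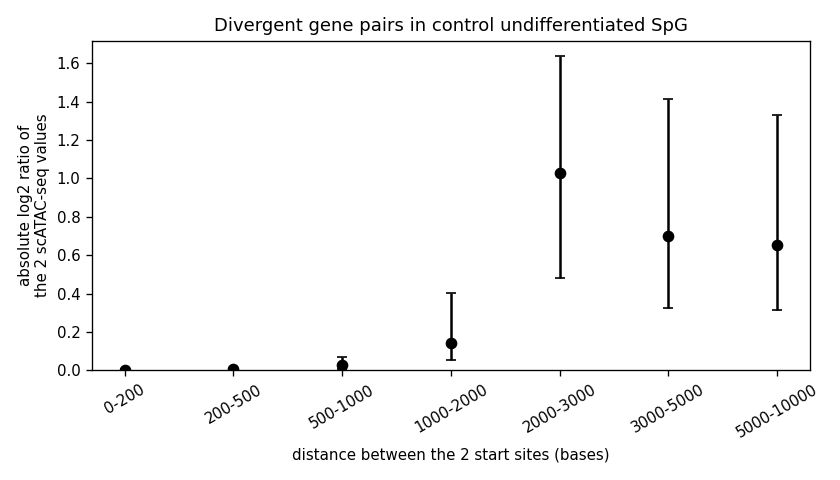
Points are the median absolute log2 ratio of the scATAC-seq values of 2 divergent neighbouring genes in control undifferentiated SpG, by the distance between their starts in bases, and bars run from the lower to the upper quartile. Values are nearly equal below 1000 bases and separate from 2000 bases on, with medians from 0.65 to 1.03.

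This matters for 2 of the subunits. The outermost GENCODE start of Nfya lies 108 bases from Oard1, a divergent gene for a nuclear ADP-ribose hydrolase, and the scATAC-seq values of both differed by at most 0.02 on the log2 scale in any population. The value of Nfya is therefore that of a shared promoter. Their RNA did not follow each other, since Oard1 was at 0.288 in undifferentiated SpG, 0.183 in round spermatids and 0.186 in SpG of the library labelled Nfya-CKO, where Nfya was at 0.456, 0.725 and 1.11. For Nfyc the outermost GENCODE start, 120831572, lies 5831 bases from the RefSeq Select start and still further from the start whose promoter holds 5 CCAAT motifs. Its scATAC-seq value of 1.89 in undifferentiated SpG, above 28.2% of genes, thus belongs to the outermost start and not to the promoters described above. Nfyb has 1 RefSeq start, its nearest neighbour starts 7177 bases away, and its value is its own.

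Nfya had 83.1 in undifferentiated SpG, 131 in differentiating SpG, 134 in pL, 108 in eL/L/Z and 78.1 in L/Z/eP, and then 90.5 in mP/lP, 112 in diplotene cells, 109 in round spermatids and 93.4 in elongating spermatids. It was above 99.0% of genes or more in each of these. Nfyb had 52.5, 67.4, 71.8, 55.5 and 31.9 in the same first 5 populations and 32.3, 35.4, 35.6 and 34.3 in the last 4. On this scale Nfyb was thus higher up to eL/L/Z than afterwards. Its scATAC-seq value in eL/L/Z against pL had a log2 ratio of -0.37, but the median gene was at -0.34. With mitochondrial genes left out the ratio was -0.04 and the median -0.03. In this step the value of Nfyb thus moved as that of the median gene, whereas its RNA was lower by more than the median gene. Mitochondrial genes held between 31.2% (pL) and 64.5% (other somatic cells) of the scATAC-seq signal, which lowers all nuclear genes by unlike amounts. With these genes left out, the highest control germ cell population for Nfya was mP/lP (228) and the lowest undifferentiated SpG (140), and for Nfyb the highest stayed pL (104) and the lowest was round spermatids (59.6), with L/Z/eP (88.0) then close to undifferentiated SpG (88.4). The range was 1.71-fold for Nfya with all genes and 1.63-fold without mitochondrial genes, and 2.25-fold and 1.75-fold for Nfyb. In control germ cells Nfyc lay between 1.22 in mP/lP and 3.82 in diplotene cells, a 3.14-fold range at low values. It was at 0.959 in Sertoli cells and listed at 0 in the unknown cells.

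In SpG of the library labelled Nfya-CKO the scATAC-seq values of Nfya and Nfyb were lower than in control undifferentiated SpG, while their RNA was higher. Nfya had 58.7 against 83.1 in control undifferentiated SpG, a log2 ratio of -0.50, and Nfyb 34.9 against 52.5, at -0.59, when the median of 18761 genes (mean of at least 5 per 1000000) was at -0.11. Without mitochondrial genes the log2 ratios were -0.36 and -0.45, and the median gene was at 0.04. With all genes, 9.90% of genes had a lower ratio than Nfya and 5.89% than Nfyb, but neither reached 2-fold, which 0.794% of genes did. Against differentiating SpG, Nfya had 58.7 against 131, a log2 ratio of -1.16 and past 2-fold, and Nfyb 34.9 against 67.4, at -0.95, in a comparison where 19.3% of genes were at least 2-fold apart. Without mitochondrial genes these were -0.89 and -0.68, both under 2-fold. Nfyc had 1.59 against 1.89 and was below the minimum. The number of cells behind a scATAC-seq value is not known, so no interval can be given. Cells of these SpG had a mean TSS enrichment (coverage at starts over that of their flanks) of 7.99 (470 cells), against 12.7 (1230 cells) in control undifferentiated SpG, and its part in the lower values was not tested.

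**Figure D5:**
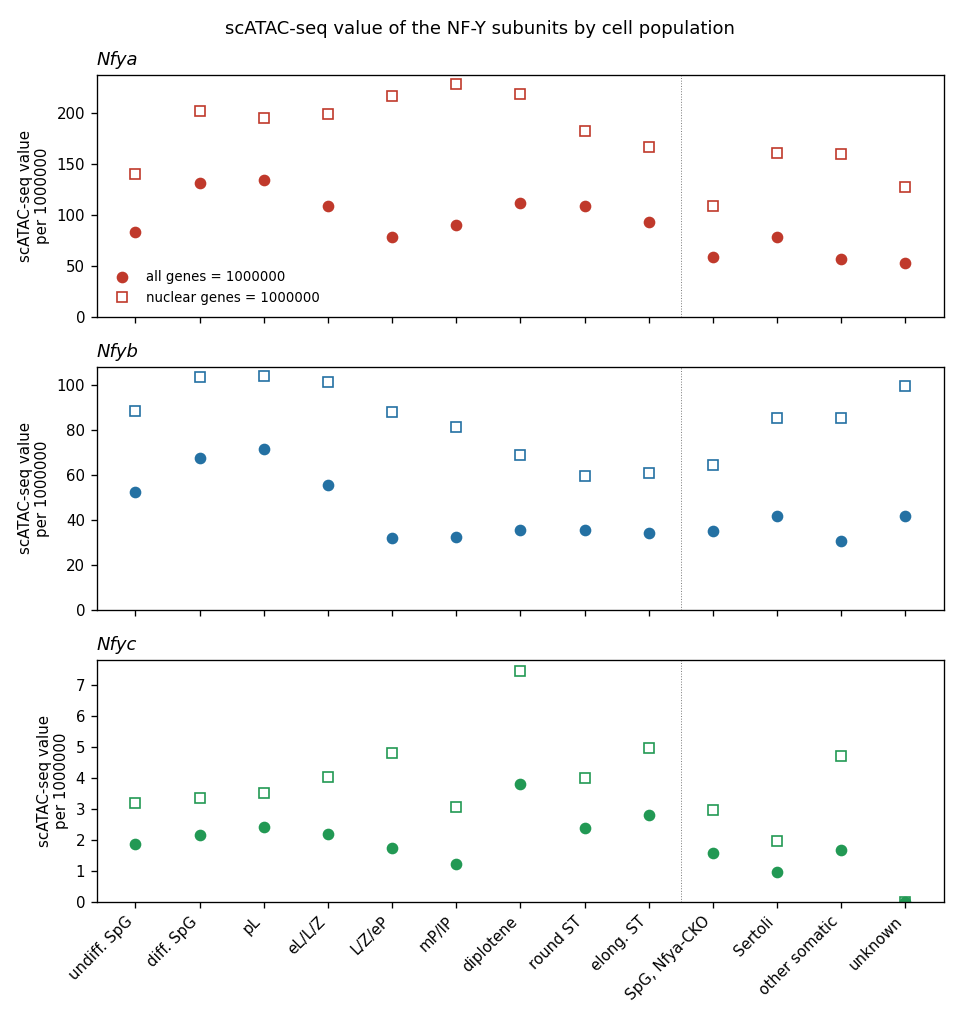
The scATAC-seq values of Nfya, Nfyb and Nfyc are plotted by population, with filled circles for a sum of 1000000 over all genes and open squares for the same sum without mitochondrial genes (linear axes from 0). Nfyb is highest in pL under both, Nfya moves its maximum from pL (134) to mP/lP (228), and SpG of the library labelled Nfya-CKO (58.7 and 109 for Nfya) lie below control undifferentiated SpG (83.1 and 140).

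The genes whose RNA pattern was most like that of each subunit were taken by Pearson's r of log2 levels over 12 named populations, out of 10267 genes whose mean reached 0.2. For Nfya they were the predicted genes Gm15218 (r = 0.96) and Gm17660 (0.96), Tek, the angiopoietin receptor (0.96), Sgcz, a sarcoglycan (0.95), and Adgrg6, an adhesion G protein-coupled receptor (0.95). All 5 had their highest level in SpG of the library labelled Nfya-CKO, from 0.655 for Adgrg6 to 1.09 for Gm15218, and most were not kept under other settings. Of these 5, Spearman's rho kept 2 and control germ cells alone 1. A minimum mean of 0.5 left out all 5, whose means were 0.242 to 0.336, so it cannot test their likeness. For Nfyb they were Slc30a6, a zinc transporter (0.98), Eif3d, a translation initiation factor subunit (0.98), Psmb2, a proteasome subunit (0.97), Lap3, an aminopeptidase (0.97), and Wdr61, a PAF1 complex subunit (0.97). Each of these was lowest in round spermatids and highest in SpG of the library labelled Nfya-CKO, as Nfyb was. For Nfyc they were Gpatch2l (0.99), Atp13a3, a P-type transport ATPase (0.98), Borcs5, a lysosome positioning subunit (0.98), Hs2st1, a heparan sulfate sulfotransferase (0.98), and Kdm5a, an H3K4 demethylase (0.97). Each was highest in pL and lowest in elongating spermatids. Spearman's rho kept 1 of the 5 for Nfyb and 1 for Nfyc, and control germ cells alone kept 1 and 2. These r values are over populations that share libraries and are a description only. The genes were picked by these r values, so the populations where they were highest or lowest are no separate result.

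Other proteins with histone folds, among them the POLE3 and CHRAC1 family to which NFYB and NFYC are related, had no member at least 2-fold apart in the Nfya-CKO comparison. Of 10 such genes, all with a mean of at least 0.05, 0 were at least 2-fold higher and 0 lower than in control undifferentiated SpG, and their median log2 ratio was 0.17. Over all 13954 genes, 4.76% were higher, 3.4% lower and the median was 0.04, so a count of 0 among 10 genes is near that background. Drap1, which with Dr1 forms a repressor of TBP, was at 5.18 against 2.83 (log2 ratio 0.85). Pole3, a DNA polymerase epsilon and chromatin remodelling subunit, was at 0.756 against 1.15 (-0.54), and Chrac1, a chromatin accessibility complex subunit, at 0.324 against 0.182 (0.59).

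Among 13 other factors that bind CCAAT boxes or Y-boxes, 12 had a mean of at least 0.05, of which 1 was at least 2-fold higher and 4 at least 2-fold lower, with a median log2 ratio of -0.56, where 4.76% of all genes were higher, 3.4% lower and their median was 0.04. With 1 added in place of 0.1 the counts were 0 higher and 1 lower, and with differentiating SpG as the control 2 and 2. The higher one was Cebpd, a C/EBP factor, at 0.209 against 0.0227 (1.33). The lower ones were Ybx2, the germ cell Y-box protein that stores mRNA, at 0.501 against 2.44 (-2.08), Ybx1, its ubiquitous relative, at 2.05 against 4.61 (-1.13), Cebpb at 0.0731 against 0.295 (-1.19), and Cebpg at 0.688 against 1.61 (-1.12). Nfib, of the nuclear factor I family, was at 1.67 against 2.59 (-0.60).

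Families of genes known for CCAAT-box promoters had medians below that of all genes (0.04). Beside the counts below, 4.76% of all genes were at least 2-fold higher and 3.4% lower, so a count of 0 in such short lists is near the background. Of 11 cell cycle genes 0 were at least 2-fold apart, with a median log2 ratio of -0.39. Top2a, a DNA topoisomerase, was at 1.98 against 3.34 (-0.73), Ccna2, cyclin A2, at 0.914 against 1.28 (-0.45), Ccnb1, cyclin B1, at 0.476 against 0.950 (-0.87), and Tk1, a thymidine kinase, at 0.214 against 0.0853 (0.76). Of 6 ER chaperone and stress genes 0 were at least 2-fold higher and 2 lower, with a median of -0.87. These were Hsp90b1, an ER chaperone, at 3.48 against 9.49 (-1.42), and Calr, calreticulin, at 4.14 against 9.14 (-1.13). Of 5 sterol and fatty acid synthesis genes 0 were at least 2-fold apart, with a median of -0.41. Srebf2, the regulator of sterol genes, was at 3.23 against 4.32 (-0.41), Fdps, farnesyl diphosphate synthase, at 0.872 against 1.39 (-0.62), and Hmgcs1, an enzyme of the mevalonate pathway, at 0.450 against 0.843 (-0.78). With differentiating SpG as the control, 2 sterol and fatty acid genes were at least 2-fold higher and 1 cell cycle gene and 3 ER genes were at least 2-fold lower in SpG of the library labelled Nfya-CKO, so these counts depend on the control. With 1 added in place of 0.1, 1 ER gene was lower.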

How the data were processed

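Nuclei of testes from 10 samples, 5 conditions with 1 scRNA-seq and 1 scATAC-seq library each, were processed by the authors. Per the labels and the study's methods, reads were aligned to mm10 (STAR 2.7.10b and BWA 0.7.12 are named in the submitters' notes), cells with under 500 genes or over 5% mitochondrial counts and doublets (DoubletFinder) were removed from scRNA-seq, cells with under 1000 fragments or a TSS score under 4 and doublets (ArchR 1.0.3) from scATAC-seq, whose fragment ends were shifted for the transposase, and populations were named with Seurat 5.2.1. The methods define promoter accessibility in pooled tracks by coverage within 200 bases of a start. Whether the scATAC-seq matrix, which has another scale, uses this region is not stated.

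The deposited matrices give 1 value per gene and population as the natural log of 1 plus a mean, which was found from the values: exp(value) - 1 sums to 10000 per column in scRNA-seq. The deposited per-cell tables give UMI counts, fragment counts, population names and TSS enrichment, which the authors give as a ratio. The names of 45250 scRNA-seq cells were joined to the matrix, 49 without a library name. The scATAC-seq values were rescaled to 1000000 per column. A further 22 columns, of other per-cell values or names, were not used.

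RNA intervals are 95% Poisson intervals of the UMI count implied by each level, given the depths of the cells averaged, and cover counting error only. With UMIs, reads of 1 molecule count once. With 1 pooled value per population, no tests were run. Log2 ratios use a pseudocount of 0.1 for RNA and, for percentiles, medians and shares over all genes, 1 for scATAC-seq, and genes need a mean over both populations of at least 0.05 (RNA) or 5 (scATAC-seq). Past a fold of 2 counted as apart. Named genes are the 3 subunits, the 5 genes most like each (mean of at least 0.2), and, per list, the 2 members with the highest mean and the 2 with the largest ratio. Cebpb and Cebpg were named after their values were seen. The subunits and lists were chosen with earlier results of these data known. The scripts were tested on simulated data. Python 3.11.15, numpy 2.4.6, pandas 2.3.3, scipy 1.17.1 and matplotlib 3.10.9 were used.

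Sequences, start sites and exons are from RefSeq on GRCm38. Alternatives were another or no pseudocount, a higher minimum level, median-ratio scaling, removal of mitochondrial genes, another control population and Spearman's rho.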

Additional observations from a re-analysis of the deposited data

Results flagged for a closer look

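The Cre/+ and Nfya-CKO scRNA-seq libraries shared 3813 cell barcodes, of 11991 and 5152 cells, as the barcodes of the per-cell table show, and the populations compared above hold such cells. Pairs of wild-type libraries shared 621 to 853, and the same 2 conditions shared 92 barcodes in scATAC-seq. Among the Nfya-CKO cells named other somatic cells, 78.3% had such a barcode, with a median of 1209 UMIs against 9447 in the Cre/+ cell of the same barcode, and the Cre/+ cell was the deeper one in 2647 of 3628 pairs. The matrix is pooled by population, so the levels of the 3 subunits without these cells could not be computed.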

How the results depend on the processing

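Of 286 alternative values, 163 stayed inside the 95% counting interval (RNA) or within 1.5-fold (scATAC-seq and counts of genes), and 123 moved further. A change of sign was counted only for RNA log2 ratios of at least 2-fold, so its count of 0 covers few values. Smaller ratios did change sign with median-ratio scaling. Nfyc in round spermatids against diplotene cells went from -0.04 to 0.34. Nfya in elongating against round spermatids went from 0.07 to -0.27. With a pseudocount of 1, the range over germ cell populations was 1.28-fold for Nfya, 1.72-fold for Nfyb and 1.77-fold for Nfyc. Without a pseudocount it was 7.62-fold for Nfyb. With median-ratio scaling it was 2.64-fold, 3.46-fold and 2.39-fold. In the Nfya-CKO comparison the log2 ratio of Nfya was 1.28 without a pseudocount, 0.53 with a pseudocount of 1 and 0.65 with differentiating SpG as the control, that of Nfyb 0.27 with a pseudocount of 1 and 0.048 with differentiating SpG, and that of Nfyc 0.12 with differentiating SpG. The scATAC-seq log2 ratio of Nfya was -1.16 with that control, an alternative chosen after seeing the data.

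With a pseudocount of 1, the numbers of genes at least 2-fold apart over the 8 consecutive steps were 189, 140, 39, 126, 40, 42, 243 and 438. They were 88 and 197 in the Nfya-CKO comparison with each control and 409 in the somatic one. With a minimum level of 0.2, they were 967 from differentiating SpG to pL, 496 from pL to eL/L/Z, 1742 for Nfya-CKO against differentiating SpG and 2222 for somatic cells. Of the 5 genes most like each subunit, Spearman's rho kept 2 for Nfya, 1 for Nfyb and 1 for Nfyc, and control germ cells alone kept 1, 1 and 2. A minimum of 0.5 kept 0 for Nfya, 1 for Nfyb and 4 for Nfyc. It left out each named gene with a mean under 0.5 and kept the others, so it cannot test the likeness of those left out. Among CCAAT-box and Y-box factors, a pseudocount of 1 gave 0 higher and 1 lower, and differentiating SpG as the control 2 and 2. That control gave 1 lower cell cycle gene and 2 higher sterol genes, and a pseudocount of 1 gave 1 lower ER gene.

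No paired analysis was possible because each condition has 1 library per assay and the values are pooled over libraries. Leaving out a library was not possible for the same reason. The fewest UMIs among named populations are in elongating spermatids. The depth behind the scATAC-seq values is unknown. The cause of the moved values was not tested.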
